A study of Homo sapiens with 32 samples.

Results

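Posterior foregut cells (S3) were compared with undifferentiated cells (S0) in H1 and MEL1, which are established lines of human embryonic stem cells. The comparison rested on 8 input libraries, 2 of each line at each of the 2 stages, out of 16 input libraries and 32 libraries in all, the others being from pancreatic progenitors (S4), immature β-like cells (S6) and the m6A immunoprecipitates. Undifferentiated cells had been kept on vitronectin in E8 medium. For S3 the same lines had been given GDF8 and CHIR-99021, then FGF7 and ascorbic acid, and last FGF7, the protein kinase C activator TPB, the Smoothened inhibitor SANT-1, retinoic acid and the BMP receptor inhibitor LDN-193189. The labels give no genetic change in either line. An input library is the fragmented mRNA kept before the m6A antibody step, so that it measures transcript level and not methylation. Reads had been counted in merged m6A peaks, and the counts of all peaks of a gene were added, which gave 7978 genes. Genes without a peak were not analysed here, among them POU5F1, NANOG, ALB and TTR. Each library was scaled with TMM factors to counts per 1000000 counts (CPM). A CPM value is not divided by transcript length, so it is compared between libraries for one gene and not between genes. In bulk RNA, fewer cells of a type and less RNA per cell cannot be told apart.

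Pluripotent cells pass through definitive endoderm and the gut tube on their way to the posterior foregut, the part of the gut from which the pancreas, liver and duodenum bud. Activin-like and Wnt signals induce the endoderm. FOXA and GATA factors open its chromatin, and HNF4A then acts in the gut epithelium. Retinoic acid patterns the tube from head to tail, Hedgehog is kept low where the pancreas forms, and BMP from the neighbouring mesoderm favours liver. PDX1 marks the foregut cells that can become pancreas. The gene lists below are ordered by these steps.

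At S3 both lines had gained the factors of gut endoderm, among them FOXA1, FOXA2, GATA4, GATA6 and HNF4A, together with PDX1, and had lost transcripts of pluripotent cells such as L1TD1, DPPA4, DNMT3B and FGF2. The lines differed at S3. MEL1 held far more of the secreted proteins AFP, APOA1, VTN and FGB and of CDX2, and H1 held more SOX2, NES, CRABP2, SOX17 and CXCR4. Of 7973 genes tested, 1195 (15.0%) were called higher at S3 than at S0 and 1100 (13.8%) were called lower in the fit over both lines. A call needs an adjusted p under 0.1 and at least a 2-fold change, in the quasi-likelihood F test of edgeR with cell line as covariate and Benjamini-Hochberg adjustment. All S3 libraries lay above all S0 libraries in 1351 of the genes tested (16.9%) and below them in 1315 (16.5%), and of these 910 were called higher and 802 lower. Tested in each line separately, 994 genes (12.5%) were higher and 748 (9.38%) lower in H1, and 1828 (22.9%) were higher and 1755 (22.0%) lower in MEL1. Called in the same direction in each line were 627 higher genes (7.86%) and 403 lower genes (5.05%). In 142 genes the calls of the lines had opposite signs. The change differed between the lines, by a test of line and stage together, in 2713 genes (34.0%), with the change in MEL1 above that in H1 in 1315 and below it in 1398. The median log2 fold change of all genes was -0.02, and it was 0.0042 in H1 and -0.0077 in MEL1.

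**Figure D1:**
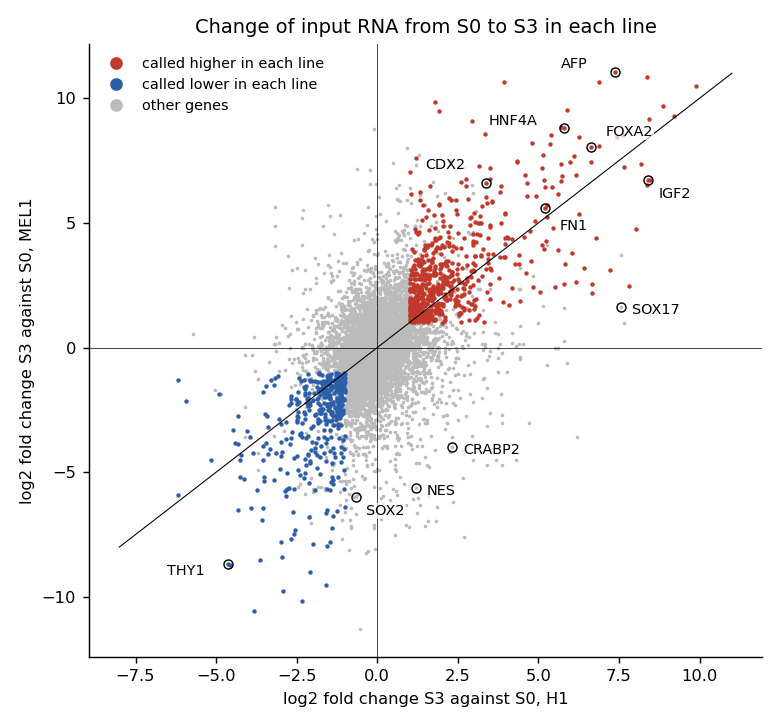
Each point is 1 of 7973 genes, with the log2 fold change of S3 against S0 in H1 on the x axis and in MEL1 on the y axis. Red points are the 627 genes called higher in each line, blue points the 403 called lower in each line, and grey points all others. SOX2, NES and CRABP2 lie far below the diagonal, and FOXA2, IGF2 and FN1 lie closer to it.

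The input libraries held 4139505 to 6879256 counts. Transcripts encoded in mitochondria took 26.4% to 27.5% of the counts in the 4 H1 libraries, 32.5% and 41.0% in MEL1 at S0 and 12.9% and 15.3% in MEL1 at S3. Replicates differed by more than sampling noise, with a chi-square per degree of freedom of 2.01 at S0 and 2.14 at S3 in H1 and of 26.0 and 8.07 in MEL1. The study describes the replicates as biological, and whether they were separate cultures is not given in the labels. The p-values within a line, and of the difference between the lines, thus measure the spread between these libraries. In the fit over both lines the spread also holds the differences between the lines in their stage changes. A gene with opposite changes in the lines can therefore have a high p-value there though its replicates are alike. Leaving the mitochondrial transcripts out before scaling gave 1172 genes higher at S3 than at S0 and 1122 genes lower at S3 than at S0.

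The stage labels were first checked on marker genes. FOXA2, a pioneer factor of the endoderm, was 4.59 and 2.96 CPM in H1 and 3.7 and 2.39 CPM in MEL1 at S0, and 381 and 373 CPM in H1 and 839.5 and 779 CPM in MEL1 at S3. PDX1, the factor that defines the pancreatic part of the foregut, was 0.483 and 0.682 CPM in H1 and 0.206 and 0.218 CPM in MEL1 at S0, and 36.5 and 29.2 CPM in H1 and 31.8 and 25.5 CPM in MEL1 at S3. L1TD1, an RNA-binding protein of pluripotent cells, was 874 and 821 CPM in H1 and 2192 and 1644 CPM in MEL1 at S0, and 67.2 and 76.8 CPM in H1 and 22.5 and 21.9 CPM in MEL1 at S3. For these markers the 4 S3 libraries did not overlap with the 4 S0 libraries. Posterior foregut markers were thus present in both lines at S3, with FOXA1, FOXA2, HNF4A, PDX1 and MNX1 called higher in each line. ONECUT1 and SOX9, 2 further markers of this stage, went apart in the lines. SOX9 was 7.25 and 10.2 CPM in H1 and 10.5 and 10.4 CPM in MEL1 at S0, and 26.2 and 23.3 CPM in H1 and 9.01 and 9.7 CPM in MEL1 at S3, and it was called higher in H1 and not in MEL1. ONECUT1 was 18.3 and 21.4 CPM in H1 and 0.50 and 2.26 CPM in MEL1 at S3, against 5.56 and 8.19 CPM in H1 and 15.6 and 7.83 CPM in MEL1 at S0, which was a rise in H1 and a fall in MEL1.

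Most measured transcription factors of the endoderm were called higher. Of the 27 measured (of 33 listed) factors, 19 were higher (70.4%) and 0 lower in the fit over both lines, against 15.0% and 13.8% of all genes. By line the calls were 19 higher and 0 lower in H1, and 18 higher and 3 lower in MEL1 (12.5% higher and 9.38% lower of all genes in H1, and 22.9% and 22.0% in MEL1), with 14 higher in each line (7.86% of all genes), and the medians on the log2 scale were 3.20 in H1 and 3.33 in MEL1. Without H1 S0 replicate 1, H1 S0 replicate 2, H1 S3 replicate 1 or H1 S3 replicate 2, 1 was lower in the fit over both lines. FOXA1, which opens closed chromatin together with FOXA2, was 1.69 and 2.5 CPM in H1 and 1.85 and 2.39 CPM in MEL1 at S0, and 267 and 241 CPM in H1 and 539 and 609.7 CPM in MEL1 at S3. GATA4, a zinc-finger factor of foregut endoderm, was 3.14 and 4.09 CPM in H1 and 3.29 and 6.31 CPM in MEL1 at S0, and 263 and 261 CPM in H1 and 577 and 578 CPM in MEL1 at S3. GATA6, its partner in pancreas formation, was 1.21 and 1.36 CPM in H1 and 1.23 and 0.435 CPM in MEL1 at S0, and 57.1 and 54.6 CPM in H1 and 72.3 and 77.6 CPM in MEL1 at S3. These 3 factors were at most 6.31 CPM at S0 and at least 54.6 CPM at S3 in every library. An SE in this text was worked back from the size of a change and its F statistic, and was not estimated separately. For large changes from few counts at S0 it is too small and overstates the precision. At S0 FOXA2 had 32 counts in H1 and GATA6 had 8 in MEL1, over 2 libraries each. The log2 fold change was 6.64 (SE 0.21) in H1 and 8.03 (SE 0.21) in MEL1 for FOXA2, 6.89 (SE 0.24) in H1 and 8.07 (SE 0.24) in MEL1 for FOXA1, 6.16 (SE 0.24) in H1 and 6.91 (SE 0.23) in MEL1 for GATA4 and 5.41 (SE 0.30) in H1 and 6.42 (SE 0.31) in MEL1 for GATA6. NR2F2, the orphan nuclear receptor COUP-TFII, was 4.59 and 5.91 CPM in H1 and 2.06 and 0.218 CPM in MEL1 at S0, and 131 and 132 CPM in H1 and 84.8 and 74 CPM in MEL1 at S3. HHEX, a homeobox gene needed for liver and ventral pancreas buds, was 0.725 and 1.36 CPM in H1 and 0 and 0 CPM in MEL1 at S0, and 11 and 10.7 CPM in H1 and 12 and 10.2 CPM in MEL1 at S3, and with no count in MEL1 at S0 it was at least 34.8-fold higher there (against 3 counts over the 2 libraries).

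HNF4A, a nuclear receptor of gut and liver epithelium, rose in both lines to unequal levels. HNF4A was 0.242 and 1.36 CPM in H1 and 2.26 and 1.74 CPM in MEL1 at S0, and 48.3 and 46.8 CPM in H1 and 939 and 878 CPM in MEL1 at S3. Its 4 S3 libraries lay above all S0 libraries, and the MEL1 libraries lay far above those of H1. The log2 fold change was 5.81 (SE 0.41) in H1 and 8.80 (SE 0.32) in MEL1, and the change was larger in MEL1 by 2.99 (adjusted p = 0.0151) in edgeR's quasi-likelihood test of the difference. SOX17 and CXCR4, a transcription factor and a chemokine receptor of early endoderm, went the other way. SOX17 was 0 and 0.227 CPM in H1 and 0.411 and 0 CPM in MEL1 at S0, and 29.2 and 26.2 CPM in H1 and 0.50 and 0.903 CPM in MEL1 at S3. CXCR4 was 3.38 and 1.82 CPM in H1 and 2.67 and 1.52 CPM in MEL1 at S0, and 26.8 and 31.5 CPM in H1 and 1.25 and 2.48 CPM in MEL1 at S3. At S3 both lay above S0 in H1 and near the S0 values in MEL1, and the same test of the difference gave adjusted p = 0.0156 for SOX17 and adjusted p = 0.00152 for CXCR4. EOMES and GSC, markers of the preceding mesendoderm, were not analysed here.

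**Figure D2:**
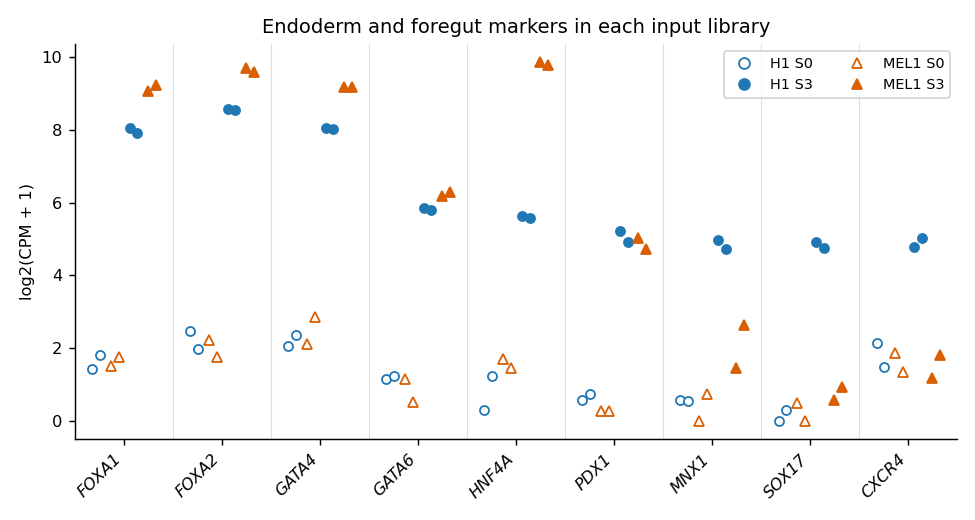
Level of 9 markers of endoderm and posterior foregut in the 8 input libraries, as log2 of CPM plus 1 on the y axis. Open symbols are S0 and filled symbols S3, circles are H1 and triangles MEL1, and each symbol is 1 library. The filled symbols lie above the open ones for every marker but CXCR4, whose MEL1 S3 libraries do not lie above all S0 libraries, and for SOX17 and MNX1 the MEL1 S3 libraries lie nearest to S0.

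Pancreatic regulators were measured for 12 of 27 listed genes. Of these 7 were higher (58.3%) and 0 lower in the fit over both lines (15.0% and 13.8% of all genes), and 6 were higher in each line (7.86% of all genes), among them PDX1, MNX1, MEIS1 and MEIS2. By line the calls were 9 higher and 0 lower in H1, and 6 higher and 2 lower in MEL1 (12.5% higher and 9.38% lower of all genes in H1, and 22.9% and 22.0% in MEL1). Leaving out H1 S3 replicate 1 or H1 S3 replicate 2 gave 1 lower gene in that fit. For PDX1 the difference between the lines missed the threshold (adjusted p = 0.402). MNX1, a homeobox gene of the dorsal pancreas, was 30.4 and 25.8 CPM in H1 and 1.75 and 5.19 CPM in MEL1 at S3, after at most 0.653 CPM at S0. MEIS1, a homeobox cofactor, was 1.45 and 2.73 CPM in H1 and 0.206 and 0.218 CPM in MEL1 at S0, and 77.1 and 79.5 CPM in H1 and 23.8 and 18.3 CPM in MEL1 at S3. MEIS2, its close relative, was 5.31 and 6.37 CPM in H1 and 1.03 and 0.218 CPM in MEL1 at S0, and 218 and 228 CPM in H1 and 9.01 and 16.5 CPM in MEL1 at S3. The H1 libraries held more MEIS2 at S3 than the MEL1 libraries, and both lines lay above S0.

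Secreted proteins of the yolk sac and fetal liver were prominent among the largest rises: 6 of the 10 largest among genes called in each line and averaging 5 CPM or more belonged to this list, namely VTN, AFP, FGB, APOA2, APOA1 and FGA. Of the list 11 of 40 genes were measured and 9 were higher in each line (7.86% of all genes), namely AFP, VTN, APOA1, APOA2, APOB, AMBP, FGA, FGB and SERPINF2. By line the calls were 9 higher and 2 lower in H1, and 11 higher and 0 lower in MEL1 (12.5% higher and 9.38% lower of all genes in H1, and 22.9% and 22.0% in MEL1). The level reached was very different in the lines. AFP, the fetal counterpart of albumin, was 0 and 0 CPM in H1 and 3.5 and 5.22 CPM in MEL1 at S0, and 5.32 and 4.33 CPM in H1 and 10260 and 8369 CPM in MEL1 at S3. APOA1, the main protein of high-density lipoprotein, was 3.87 and 1.14 CPM in H1 and 10.5 and 7.4 CPM in MEL1 at S0, and 291 and 295 CPM in H1 and 15020 and 13710 CPM in MEL1 at S3. VTN, which encodes vitronectin, was 0 and 0.227 CPM in H1 and 4.93 and 3.7 CPM in MEL1 at S0, and 137 and 141 CPM in H1 and 6709 and 5928 CPM in MEL1 at S3. The MEL1 S3 libraries held 5928 to 15020 CPM of each of these transcripts and the H1 S3 libraries at most 295 CPM. The difference in change between the lines passed the threshold for APOA1, at 3.76 (adjusted p = 1.42e-05), and missed it for AFP (adjusted p = 0.898) and VTN (adjusted p = 0.899) in edgeR's quasi-likelihood test, with 0 or 1 count of AFP and VTN in the H1 libraries at S0. In H1 AFP was at least 13.8-fold higher at S3, since no AFP read was counted in H1 at S0. FGB, a chain of fibrinogen, was 0.242 and 0 CPM in H1 and 4.52 and 5.01 CPM in MEL1 at S0, and 48.7 and 48.4 CPM in H1 and 9858 and 7764 CPM in MEL1 at S3. APOB, the protein of low-density lipoprotein, was 9.26 and 10.7 CPM in H1 and 522 and 534 CPM in MEL1 at S3, after at most 3.08 CPM at S0. APOC1 and APOE, 2 further apolipoproteins, had opposite calls. APOE was 1372 and 1574 CPM in H1 and 537 and 698 CPM in MEL1 at S0, and 676 and 582 CPM in H1 and 6294 and 7382 CPM in MEL1 at S3, a fall of 1.23 (SE 0.20) in H1 and a rise of 3.47 (SE 0.21) in MEL1 on the log2 scale. APOC1 was 67.2 and 61.4 CPM in H1 and 22.4 and 25 CPM in MEL1 at S0, and 25.4 and 24.9 CPM in H1 and 529 and 579 CPM in MEL1 at S3. The listed genes together took 597 to 1644 CPM at S0 and 1216 to 52690 CPM at S3.

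**Figure D3:**
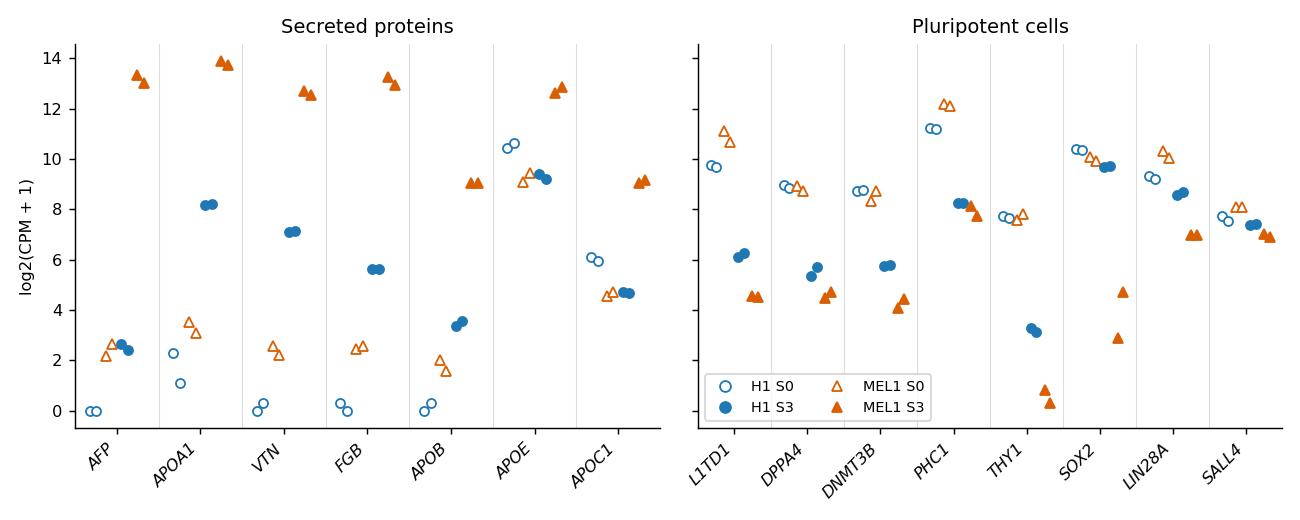
Level of 7 transcripts of secreted proteins (left) and of 8 transcripts of pluripotent cells (right) in the 8 input libraries, as log2 of CPM plus 1 on the y axis. Open symbols are S0 and filled symbols S3, circles are H1 and triangles MEL1. On the left the MEL1 S3 libraries lie far above the H1 S3 libraries, with AFP at 10260 and 8369 CPM against 5.32 and 4.33 CPM, and on the right SOX2 and LIN28A lie closer to S0 in H1 than in MEL1.

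Some of the largest changes lay outside the lists of secreted proteins. LINC02381, a long noncoding RNA, was 0.242 and 0 CPM in H1 and 0 and 0.218 CPM in MEL1 at S0, and 90.7 and 83.4 CPM in H1 and 85.8 and 81.7 CPM in MEL1 at S3, so that it went from at most 1 count per library to a level that was alike in the lines. LINC00479, another long noncoding RNA, was 0 and 0 CPM in H1 and 0.206 and 0 CPM in MEL1 at S0, and 11.2 and 9.06 CPM in H1 and 89.6 and 65 CPM in MEL1 at S3. The 10 largest falls among genes called in each line and averaging 5 CPM or more held THY1, VSNL1, FGFBP3, ESRG, IFITM1 and L1TD1, and 4 further genes. CACNG7, a subunit that accompanies ion channels and glutamate receptors, was 89.4 and 85.3 CPM in H1 and 50 and 39.2 CPM in MEL1 at S0, and 5.32 and 7.0 CPM in H1 and 0 and 0 CPM in MEL1 at S3. ATCAY, which encodes caytaxin, was 125 and 129 CPM in H1 and 178 and 157 CPM in MEL1 at S0, and 27.4 and 22.9 CPM in H1 and 0 and 0.226 CPM in MEL1 at S3. VGF, a secreted neuropeptide precursor, was 20.5 and 32.3 CPM in H1 and 38.9 and 70.5 CPM in MEL1 at S0, and 2.56 and 1.65 CPM in H1 and 0 and 0.226 CPM in MEL1 at S3. JPH4, a junctophilin, was 27.3 and 35.7 CPM in H1 and 9.87 and 14.6 CPM in MEL1 at S0, and 1.38 and 1.24 CPM in H1 and 0 and 0 CPM in MEL1 at S3. All 4 fell in each line, and in MEL1 at most 1 count per library was left at S3.

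Promoters were examined because liver and gut genes that rose together share known binding factors. The windows run from 250 bases before to 50 bases after the start of each gene, were taken from RefSeq (GRCh38.p14), and were held for 5994 of the 7973 genes tested, for 453 of the 627 called higher in each line and for 290 of the 403 called lower. Both strands were searched. The HNF1 motif GTTAATNAT was in 1.32% of the windows of genes higher in each line, in 0.367% of all windows and in none of the 290 of genes lower in each line. For the FOXA motif TGTTTAC the shares were 3.31%, 2.15% and 0.345%, for the GATA motif AGATAA 5.52%, 4.34% and 3.10%, and for the HNF4 motif CAAAGTCCA 0.221%, 0.217% and none. The octamer ATGCAAAT, bound by POU factors of stem cells, was in 0.662%, 1.30% and 2.07%. The TATA box TATAAA was in 8.17%, 5.12% and 7.24%. The 6 windows with the HNF1 motif among genes higher in each line were those of AFP, FGA, ELF1, GLYCTK, GPR39 and PRRT1B. In all, 22 windows held this motif. The others belonged to genes not called in the same direction in each line, with log2 fold changes of either sign. A match is a description of the letters and not evidence of binding. Printed 5′ to 3′ on the gene's strand with motif matches in capitals, are AFP (HNF1 and TATA) and FGA (HNF1) among the secreted proteins, HNF4A (GATA) and CDX2 (GATA, FOXA and octamer) among the regulators that rose more in MEL1 than in H1, and SFRP2 (octamer) among the genes that fell.
AFP promoter, chr4:73435971-73436270, plus strand: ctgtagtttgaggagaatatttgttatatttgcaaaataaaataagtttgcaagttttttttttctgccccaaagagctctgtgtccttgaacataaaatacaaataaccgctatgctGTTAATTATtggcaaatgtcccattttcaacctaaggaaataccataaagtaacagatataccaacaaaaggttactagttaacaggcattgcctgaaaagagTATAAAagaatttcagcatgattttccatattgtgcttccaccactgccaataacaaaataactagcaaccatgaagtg
FGA promoter, chr4:154590693-154590992, minus strand: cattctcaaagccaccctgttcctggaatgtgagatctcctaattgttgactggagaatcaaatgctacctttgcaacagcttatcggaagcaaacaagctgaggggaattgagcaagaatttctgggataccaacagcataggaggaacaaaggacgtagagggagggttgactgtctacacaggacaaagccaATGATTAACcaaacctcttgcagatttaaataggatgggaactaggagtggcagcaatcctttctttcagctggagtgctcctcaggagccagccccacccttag
HNF4A promoter, chr20:44355449-44355748, plus strand: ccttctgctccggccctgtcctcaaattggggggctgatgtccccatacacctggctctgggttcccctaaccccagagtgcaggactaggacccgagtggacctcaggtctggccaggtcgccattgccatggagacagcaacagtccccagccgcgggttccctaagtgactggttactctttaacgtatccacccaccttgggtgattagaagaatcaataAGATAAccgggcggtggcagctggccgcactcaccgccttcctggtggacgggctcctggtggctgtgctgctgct
CDX2 promoter, chr13:27969266-27969565, minus strand: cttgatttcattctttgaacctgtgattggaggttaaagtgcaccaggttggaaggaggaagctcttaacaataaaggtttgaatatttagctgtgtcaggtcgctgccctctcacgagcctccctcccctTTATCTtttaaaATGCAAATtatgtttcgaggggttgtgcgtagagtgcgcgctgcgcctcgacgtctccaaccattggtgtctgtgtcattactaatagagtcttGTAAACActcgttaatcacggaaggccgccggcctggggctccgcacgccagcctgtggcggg
SFRP2 promoter, chr4:153789034-153789333, minus strand: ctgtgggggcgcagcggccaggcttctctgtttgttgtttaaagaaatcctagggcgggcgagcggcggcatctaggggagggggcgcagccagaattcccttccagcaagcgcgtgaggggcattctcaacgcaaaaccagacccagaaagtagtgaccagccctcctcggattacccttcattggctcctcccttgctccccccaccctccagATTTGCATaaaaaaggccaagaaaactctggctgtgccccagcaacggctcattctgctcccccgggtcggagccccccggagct

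Most measured transcripts of pluripotent cells were called lower. Of the 32 measured (of 50 listed) genes none was called higher and 25 (78.1%) were lower in the fit over both lines, against 13.8% of all genes. By line 20 were lower in H1 and 27 in MEL1 (9.38% and 22.0% of all genes), 19 of them in each line (5.05% of all genes), with medians on the log2 scale of -1.23 in H1 and -3.04 in MEL1. DPPA4, a nuclear factor of the early embryo, was 503 and 463 CPM in H1 and 485 and 418 CPM in MEL1 at S0, and 39.4 and 51.9 CPM in H1 and 21.3 and 25.3 CPM in MEL1 at S3. DNMT3B, the de novo DNA methyltransferase, was 419.8 and 439.7 CPM in H1 and 322 and 421 CPM in MEL1 at S0, and 53.2 and 54.2 CPM in H1 and 15.8 and 20.5 CPM in MEL1 at S3. PHC1, a Polycomb subunit, was 2390 and 2323 CPM in H1 and 4649 and 4432 CPM in MEL1 at S0, and 306 and 306 CPM in H1 and 282 and 215 CPM in MEL1 at S3. In each of these all S3 libraries lay below all S0 libraries in both lines. The log2 fold change was -3.40 (SE 0.18) in H1 and -4.27 (SE 0.19) in MEL1 for DPPA4, -3.00 (SE 0.18) in H1 and -4.35 (SE 0.20) in MEL1 for DNMT3B, -2.95 (SE 0.17) in H1 and -4.19 (SE 0.18) in MEL1 for PHC1 and -3.56 (SE 0.17) in H1 and -6.43 (SE 0.20) in MEL1 for L1TD1. THY1, a surface glycoprotein with the largest fall among genes called in each line and averaging 5 CPM or more, was 210.4 and 198 CPM in H1 and 189.6 and 222 CPM in MEL1 at S0, and 8.67 and 7.83 CPM in H1 and 0.751 and 0.226 CPM in MEL1 at S3. VSNL1, a neuronal calcium sensor also found in stem cells, changed by -6.07 (SE 0.42) on the log2 scale in the fit over both lines, and ESRG, a long noncoding RNA of stem cells, by -4.80 (SE 0.91). IFITM1, an interferon-induced membrane protein, was 682 and 732 CPM in H1 and 624 and 709 CPM in MEL1 at S0, and 39.6 and 34.8 CPM in H1 and 15.8 and 20.1 CPM in MEL1 at S3.

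Another group of stem cell transcripts was called lower in MEL1 and changed by less than 2-fold in H1. SOX2, which serves both pluripotency and the anterior gut, was 1332 and 1317 CPM in H1 and 1079 and 974 CPM in MEL1 at S0, and 825 and 836 CPM in H1 and 6.51 and 25.5 CPM in MEL1 at S3. LIN28A, which blocks maturation of let-7, was 636 and 594 CPM in H1 and 1287 and 1054 CPM in MEL1 at S0, and 382 and 408 CPM in H1 and 125 and 126 CPM in MEL1 at S3. LIN28B, its paralog, was 175 and 153 CPM in H1 and 242 and 207 CPM in MEL1 at S0, and 125 and 134 CPM in H1 and 40 and 32.5 CPM in MEL1 at S3. All S3 libraries lay below all S0 libraries for these genes, and the H1 libraries stayed closer to S0 than those of MEL1. The log2 fold change was -0.67 (SE 0.23) in H1 and -5.98 (SE 0.31) in MEL1 for SOX2, -0.64 (SE 0.16) in H1 and -3.22 (SE 0.18) in MEL1 for LIN28A and -0.34 (SE 0.18) in H1 and -2.63 (SE 0.19) in MEL1 for LIN28B. Of these values those of MEL1 passed the 2-fold threshold and those of H1 did not, and the differences between the lines were -5.30, -2.58 and -2.29 (adjusted p = 1.14e-09, 3.39e-08 and 7.43e-07). SALL4, a zinc-finger factor, was 211 and 184 CPM in H1 and 270.0 and 272 CPM in MEL1 at S0, and 167 and 170.1 CPM in H1 and 130.1 and 117 CPM in MEL1 at S3, and it was called lower in MEL1 and not in the fit over both lines.

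Retinoic acid acts through RARs that bind DNA with RXRs, and its direct targets include RARB. Of the 15 measured (of 39 listed) genes 11 were higher in each line, among them RARA, RARB, RXRA, DHRS3, NRIP1, NR2F1, NR2F2, MEIS1, MEIS2 and CDX2, against 7.86% of all genes, and none was lower in each line. By line the calls were 12 higher and 0 lower in H1, and 11 higher and 3 lower in MEL1 (12.5% higher and 9.38% lower of all genes in H1, and 22.9% and 22.0% in MEL1). In the fit over both lines the list gave 11 higher genes (73.3%, against 15.0% of all genes) and none lower. The count of lower genes in that fit was 1 without H1 S3 replicate 1. RARB was 0 and 1.14 CPM in H1 and 0 and 0 CPM in MEL1 at S0, and 30.6 and 33.2 CPM in H1 and 4.75 and 4.74 CPM in MEL1 at S3, which with no count in MEL1 at S0 is at least 15-fold higher in that line. CDX2, a homeobox gene of the caudal gut, was 0.483 and 2.05 CPM in H1 and 5.55 and 3.05 CPM in MEL1 at S0, and 12.4 and 15 CPM in H1 and 441 and 404 CPM in MEL1 at S3. RARB was higher in H1 than in MEL1 at S3, and CDX2 was higher in MEL1. CRABP2, the binding protein that carries retinoic acid to its receptor, had opposite calls. It was 733 and 724 CPM in H1 and 361 and 314 CPM in MEL1 at S0, and 3671 and 3662 CPM in H1 and 19.8 and 23 CPM in MEL1 at S3, and the log2 fold change was 2.33 (SE 0.15) in H1 and -3.98 (SE 0.18) in MEL1. CYP26A1 and CYP26B1 were not analysed here.

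In the Hedgehog pathway the ligand IHH rose and the target GLI1 fell in both lines. Of the 16 measured (of 23 listed) genes 6 were higher (37.5%) and 2 lower (12.5%) in the fit over both lines (15.0% and 13.8% of all genes), and by line 10 higher and 1 lower in H1, and 6 higher and 4 lower in MEL1 (12.5% higher and 9.38% lower of all genes in H1, and 22.9% and 22.0% in MEL1). IHH, a ligand of gut epithelium, was 1.93 and 0.909 CPM in H1 and 9.66 and 7.18 CPM in MEL1 at S0, and 45.7 and 42 CPM in H1 and 557 and 593 CPM in MEL1 at S3. GLI1, a transcriptional effector and direct target of the pathway, was 19.8 and 16.6 CPM in H1 and 11.3 and 17.4 CPM in MEL1 at S0, and 7.88 and 7.83 CPM in H1 and 0.50 and 2.48 CPM in MEL1 at S3. GLI2, the main activator, was 83.6 and 80.7 CPM in H1 and 70.3 and 93.4 CPM in MEL1 at S0, and 67 and 59.5 CPM in H1 and 1.0 and 3.16 CPM in MEL1 at S3. GLI3, the main repressor, was 15.7 and 12.3 CPM in H1 and 16 and 17.4 CPM in MEL1 at S0, and 50.5 and 54.2 CPM in H1 and 2.0 and 5.87 CPM in MEL1 at S3. IHH rose and GLI1 fell in each line, whereas GLI2 fell in MEL1 with no call in H1 and GLI3 rose in H1 and fell in MEL1. SHH, another ligand, had no count at S0 and 37 counts over the 4 S3 libraries, at least 12.1-fold higher (against 3 counts over the 4 libraries). Of these counts 32 were from H1 and 5 from MEL1. Of the pathway's inhibitors, GPR161, a receptor that keeps the pathway off, rose with a log2 fold change of 1.19 (SE 0.18) in H1 and 2.77 (SE 0.19) in MEL1. PTCH1, the receptor and a target, was 17.3 and 15 CPM in H1 and 4.5 and 2.26 CPM in MEL1 at S3, against 7.73 and 5.91 CPM in H1 and 5.35 and 5.01 CPM in MEL1 at S0, and it was called higher in H1 and not in MEL1.

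Of the 26 measured (of 41 listed) BMP pathway genes 9 were higher (34.6%) and 2 lower (7.69%) in the fit over both lines (15.0% and 13.8% of all genes), and by line 11 higher and 2 lower in H1, and 9 higher and 5 lower in MEL1 (12.5% higher and 9.38% lower of all genes in H1, and 22.9% and 22.0% in MEL1). With H1 S0 replicate 1, H1 S0 replicate 2 or H1 S3 replicate 2 left out, 4 were lower over both lines. BMP2, a ligand, was 8.7 and 8.87 CPM in H1 and 4.11 and 6.96 CPM in MEL1 at S0, and 71.2 and 54 CPM in H1 and 294 and 395 CPM in MEL1 at S3. BAMBI, a decoy receptor induced by the pathway, changed by 1.80 (SE 0.18) in H1 and 3.26 (SE 0.18) in MEL1 on the log2 scale. ID1, an inhibitor of differentiation and a common readout of BMP signalling, was 100.7 and 100.5 CPM in H1 and 38.5 and 58.8 CPM in MEL1 at S0, and 51.4 and 40.6 CPM in H1 and 7.01 and 14.9 CPM in MEL1 at S3. The ligand and the decoy receptor rose in each line and ID1 fell in each line.

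Of the 24 measured (of 40 listed) Nodal and activin pathway genes 7 were higher (29.2%) and 2 lower (8.33%) in the fit over both lines (15.0% and 13.8% of all genes), and by line 6 higher and 1 lower in H1, and 5 higher and 5 lower in MEL1 (12.5% higher and 9.38% lower of all genes in H1, and 22.9% and 22.0% in MEL1). In MEL1 the shares of 20.8% higher and 20.8% lower were near those of all genes. Over both lines 3 were higher once MEL1 S0 replicate 2 was left out. Without MEL1 S0 replicate 1, 4 were higher in the fit over both lines. Leaving out MEL1 S3 replicate 1 or MEL1 S3 replicate 2 gave 1 lower gene in that fit. TGFB2 was the one member higher in each line, with 4.35 and 4.78 CPM in H1 and 0.206 and 0.435 CPM in MEL1 at S0, and 40 and 43 CPM in H1 and 8.76 and 7.0 CPM in MEL1 at S3. CER1 and LEFTY2, secreted antagonists of Nodal, were called higher in H1 and not in MEL1. CER1 was 1.69 and 0.227 CPM in H1 and 3.08 and 3.92 CPM in MEL1 at S0, and 8.08 and 17.9 CPM in H1 and 4.25 and 2.71 CPM in MEL1 at S3. LEFTY2 was 7.25 and 7.96 CPM in H1 and 17.5 and 17.9 CPM in MEL1 at S0, and 60.7 and 61 CPM in H1 and 9.01 and 14.2 CPM in MEL1 at S3. In the fit over both lines the call of LEFTY2 was lost without H1 S0 replicate 1 or 2, H1 S3 replicate 1 or 2, or MEL1 S0 replicate 2, with log2 fold changes of 1.47 to 1.95, and that of CER1 without H1 S0 replicate 1 or 2 or H1 S3 replicate 2, with 1.29 to 1.91. NODAL was 4.35 and 6.59 CPM in H1 and 102 and 100.3 CPM in MEL1 at S0, and 4.73 and 8.03 CPM in H1 and 37.3 and 20.3 CPM in MEL1 at S3, and it was called lower in MEL1 and not in H1. The level of NODAL in MEL1 lay above that in H1 at both stages, and over both lines NODAL was called without H1 S3 replicate 2 alone, at -1.26 on the log2 scale.

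Of the 45 measured (of 69 listed) Wnt pathway genes 15 were higher (33.3%) and 3 lower (6.67%) in the fit over both lines (15.0% and 13.8% of all genes), and 11 were higher and 2 lower in each line (7.86% and 5.05% of all genes). The count of lower genes in that fit was 5 without H1 S3 replicate 1 or H1 S3 replicate 2. The ones that rose in each line were ligands (WNT5A, WNT11), the secretion factor WLS, the enhancer RSPO3, the receptors FZD4, FZD5 and ROR2, the inhibitors SFRP5 and FRZB, and TNFRSF19 and SP8. WNT5A was not called in the fit over both lines, at 1.44 on the log2 scale (adjusted p = 0.159). RSPO3 was 0.483 and 2.27 CPM in H1 and 0.206 and 1.09 CPM in MEL1 at S0, and 16.6 and 15.9 CPM in H1 and 102 and 91.6 CPM in MEL1 at S3. WNT11 was 0.242 and 0 CPM in H1 and 1.23 and 1.74 CPM in MEL1 at S0, and 3.15 and 4.12 CPM in H1 and 153 and 141 CPM in MEL1 at S3. WLS, which carries Wnt proteins to the cell surface, was 5.8 and 11.1 CPM in H1 and 6.38 and 7.18 CPM in MEL1 at S0, and 301 and 296 CPM in H1 and 117 and 117 CPM in MEL1 at S3. RSPO3 and WNT11 were higher in MEL1 than in H1 at S3 and WLS was higher in H1. SFRP1 and SFRP2, secreted Wnt antagonists of stem cells, fell in each line. SFRP2 was 1600 and 1611 CPM in H1 and 1365 and 1466 CPM in MEL1 at S0, and 269 and 283 CPM in H1 and 2.5 and 14.7 CPM in MEL1 at S3. AXIN2, the feedback target of β-catenin, was 43.5 and 41.1 CPM in H1 and 70.7 and 61.8 CPM in MEL1 at S0, and 86.7 and 91.9 CPM in H1 and 7.26 and 10.8 CPM in MEL1 at S3, a rise in H1 and a fall in MEL1 by call. Over both lines AXIN2 was not called, though it was without H1 S0 replicate 1 or 2, at -1.39 and -1.40 on the log2 scale.

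Of the 35 measured (of 47 listed) FGF pathway genes 9 were higher (25.7%) and 11 lower (31.4%) in the fit over both lines (15.0% and 13.8% of all genes), and 4 were higher and 8 lower in each line (7.86% and 5.05% of all genes). FGF2, the ligand that sustains stem cells, was 77.3 and 63.9 CPM in H1 and 102 and 98.4 CPM in MEL1 at S0, and 11.4 and 14 CPM in H1 and 4.5 and 2.26 CPM in MEL1 at S3. FGFBP3, which binds FGFs in the matrix, was 657 and 655 CPM in H1 and 386 and 300.1 CPM in MEL1 at S0, and 44.9 and 41.2 CPM in H1 and 4.75 and 3.16 CPM in MEL1 at S3. SPRY4, a feedback inhibitor of the pathway, was 191 and 195 CPM in H1 and 237 and 206 CPM in MEL1 at S0, and 12.2 and 12.8 CPM in H1 and 17.8 and 18.7 CPM in MEL1 at S3. ETV4, a target transcription factor, changed by -3.74 (SE 0.35) in H1 and -5.71 (SE 0.41) in MEL1 on the log2 scale. The ligand, the carrier and the targets fell in each line, while FLRT3, a membrane partner of FGF receptors, rose, with 7.25 and 9.55 CPM in H1 and 9.05 and 8.05 CPM in MEL1 at S0, and 205 and 202 CPM in H1 and 961 and 1135 CPM in MEL1 at S3. GPC3, a glypican also known from fetal liver, was 122 and 133 CPM in H1 and 49.6 and 44.2 CPM in MEL1 at S0, and 379.8 and 375 CPM in H1 and 2069 and 2238 CPM in MEL1 at S3.

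Of the 30 measured (of 43 listed) Notch pathway genes 7 were higher (23.3%) and 4 lower (13.3%) in the fit over both lines (15.0% and 13.8% of all genes), with 8 higher and 1 lower in H1, and 7 higher and 7 lower in MEL1 (12.5% higher and 9.38% lower of all genes in H1, and 22.9% and 22.0% in MEL1). In MEL1 the shares of 23.3% higher and 23.3% lower were near those of all genes. DLL1, a ligand, was 15.7 and 16.4 CPM in H1 and 3.91 and 9.36 CPM in MEL1 at S0, and 52 and 51.9 CPM in H1 and 15.8 and 16.2 CPM in MEL1 at S3. NOTCH1, a receptor, was 99.5 and 113 CPM in H1 and 87.4 and 122 CPM in MEL1 at S0, and 54.4 and 48.8 CPM in H1 and 5.5 and 6.77 CPM in MEL1 at S3. JAG1, a ligand, was 51.2 and 38.6 CPM in H1 and 107 and 91.6 CPM in MEL1 at S0, and 68.6 and 67.8 CPM in H1 and 5.75 and 11.7 CPM in MEL1 at S3. DLL1 rose and NOTCH1 fell in each line, and JAG1 fell in MEL1 with no call in H1.

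Of the 27 measured (of 40 listed) insulin and IGF genes 5 were higher (18.5%) and 2 lower (7.41%) in the fit over both lines (15.0% and 13.8% of all genes), and 5 were higher in each line (7.86% of all genes). With MEL1 S0 replicate 2, MEL1 S3 replicate 1 or MEL1 S3 replicate 2 left out, 1 was lower over both lines. IGF2, the fetal growth factor, was 42.8 and 41.1 CPM in H1 and 28 and 27.2 CPM in MEL1 at S0, and 14580 and 13490 CPM in H1 and 3167 and 2589 CPM in MEL1 at S3. IGFBP5, an IGF carrier, was 103 and 116 CPM in H1 and 12.5 and 8.27 CPM in MEL1 at S0, and 3602 and 3555 CPM in H1 and 38 and 60.9 CPM in MEL1 at S3. IGF2R, which clears IGF2, was 41.5 and 48.4 CPM in H1 and 47.5 and 47.2 CPM in MEL1 at S0, and 108 and 104 CPM in H1 and 206 and 196 CPM in MEL1 at S3. IGF2 was higher at S3 in H1 than in MEL1, with a difference in change of -1.68 (adjusted p = 2.9e-05). Reads of IGF2 are shared with the overlapping INS-IGF2, so the gene's own level is uncertain. FOXO1, a transcription factor held back by insulin signalling, was 38.4 and 49.3 CPM in H1 and 74.8 and 64.4 CPM in MEL1 at S0, and 16.8 and 15.4 CPM in H1 and 17.5 and 25.9 CPM in MEL1 at S3, and fell in each line.

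**Figure D4:**
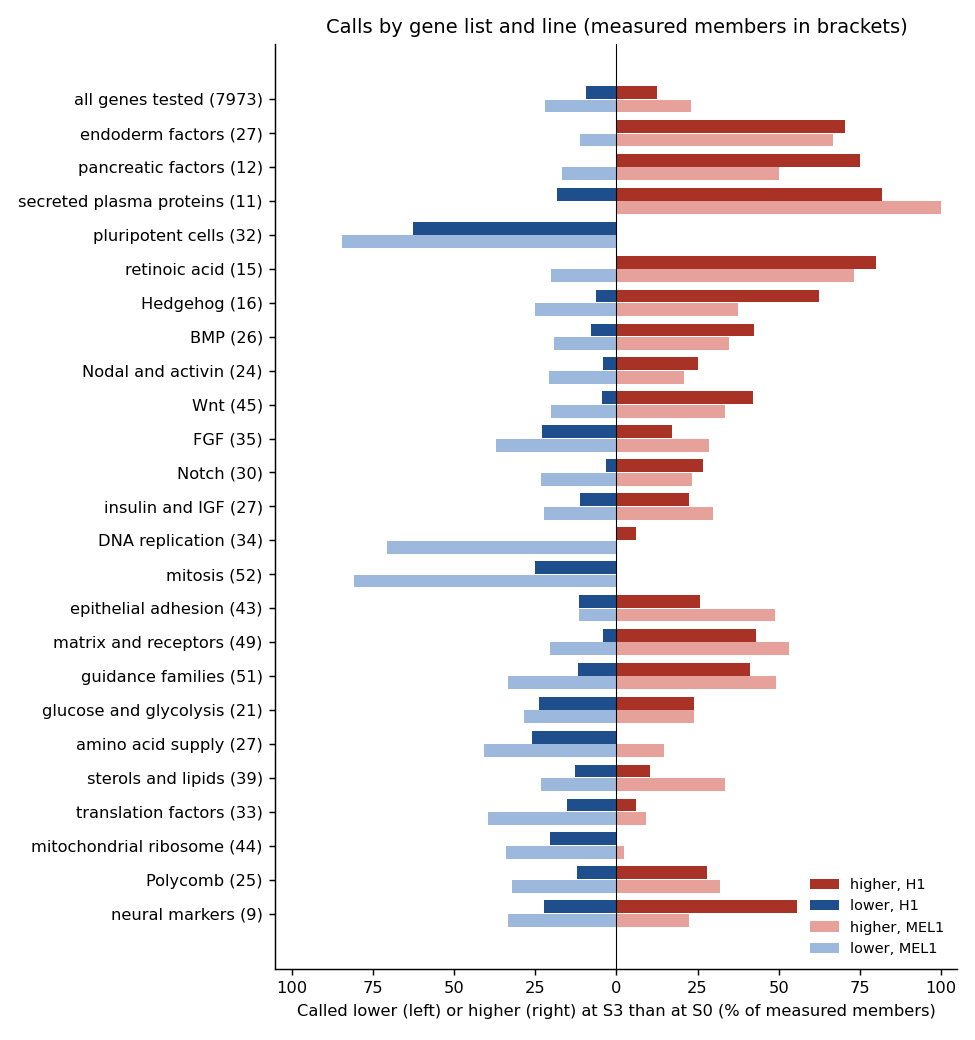
Share of the measured members of 24 gene lists called higher (right, red) and lower (left, blue) at S3 than at S0, in percent of members, with H1 as dark and MEL1 as light bars. The top row gives all 7973 genes tested. In the mitosis list 25% of members were called lower in H1 and 80.8% in MEL1.

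Cell cycle transcripts were called lower more often in MEL1 than in H1, as were all genes tested (22.0% against 9.38%). Of the 34 measured (of 50 listed) genes of DNA replication none was higher and 14 were lower in the fit over both lines (15.0% and 13.8% of all genes), with 2 higher and none lower in H1 and 24 in MEL1. Over both lines 9 were lower once MEL1 S0 replicate 2, MEL1 S3 replicate 1 or MEL1 S3 replicate 2 was left out. Of the 52 measured (of 67 listed) genes of mitosis none was higher and 33 were lower, 13 in H1 and 42 in MEL1. In 38 of the mitosis genes and 23 of the replication genes the change differed between the lines, against 34.0% of all genes. MCM4, part of the replicative helicase, was 59.9 and 66.2 CPM in H1 and 102 and 93.2 CPM in MEL1 at S0, and 48.7 and 57.5 CPM in H1 and 18 and 20.1 CPM in MEL1 at S3. MKI67, the proliferation marker, was 404 and 376 CPM in H1 and 602 and 451 CPM in MEL1 at S0, and 404 and 427 CPM in H1 and 139 and 108 CPM in MEL1 at S3. BUB1, a kinase of the spindle checkpoint, was 61.1 and 56.6 CPM in H1 and 66.4 and 57.5 CPM in MEL1 at S0, and 20.9 and 22.2 CPM in H1 and 3.75 and 6.54 CPM in MEL1 at S3. MCM4 and MKI67 changed by -0.25 and 0.09 on the log2 scale in H1 and fell in MEL1, and BUB1 fell in each line. In the fit over both lines the call of MKI67 was lost without any 1 of the 4 MEL1 libraries, with log2 fold changes of -0.77 to -0.98. DLGAP5, a spindle protein, changed by -1.66 (SE 0.27) in H1 and -4.24 (SE 0.35) in MEL1 on the log2 scale. MYC, a driver of growth, was 153 and 156 CPM in H1 and 177 and 162 CPM in MEL1 at S0, and 58.7 and 60.6 CPM in H1 and 2.25 and 5.19 CPM in MEL1 at S3. CCND1, a cyclin of the G1 phase, was 167 and 169.6 CPM in H1 and 294 and 354 CPM in MEL1 at S0, and 263 and 243 CPM in H1 and 43 and 48.5 CPM in MEL1 at S3. MYC fell in each line and CCND1 in MEL1. CDKN1C, an inhibitor of cyclin-dependent kinases, was 32.6 and 42.5 CPM in H1 and 7.2 and 17.6 CPM in MEL1 at S0, and 40.4 and 21.4 CPM in H1 and 374 and 841 CPM in MEL1 at S3, and it was called in MEL1 and not in H1. Over both lines CDKN1C was not called with all libraries and was called without H1 S0 replicate 2, H1 S3 replicate 1 or H1 S3 replicate 2, at 3.04 to 3.26 on the log2 scale. BTG2, an antiproliferative gene, rose by 2.26 (SE 0.20) in H1 and 2.15 (SE 0.18) in MEL1.

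Epithelial and matrix genes changed in both directions. Of the 43 measured (of 57 listed) genes of epithelial adhesion and junctions 12 were higher (27.9%) and 2 lower (4.65%) in the fit over both lines (15.0% and 13.8% of all genes), and 10 were higher in each line (7.86% of all genes). Without MEL1 S3 replicate 2, 1 was lower in the fit over both lines. Leaving out MEL1 S0 replicate 2 gave 4 lower genes in that fit. The count of lower genes in that fit was 5 without MEL1 S0 replicate 1. CDH1, which encodes E-cadherin, was 286 and 266 CPM in H1 and 471 and 421 CPM in MEL1 at S0, and 246 and 251 CPM in H1 and 312 and 324 CPM in MEL1 at S3, with no call. CDH2, which encodes N-cadherin, was 63.5 and 67.1 CPM in H1 and 91.9 and 64.8 CPM in MEL1 at S0, and 679.9 and 684 CPM in H1 and 748 and 644 CPM in MEL1 at S3. CDH6 was 10.9 and 8.19 CPM in H1 and 3.5 and 2.83 CPM in MEL1 at S0, and 142 and 125 CPM in H1 and 258 and 228 CPM in MEL1 at S3. Both latter cadherins rose in each line. KRT19, a keratin of ducts and gut epithelium, was 303 and 328 CPM in H1 and 227 and 287 CPM in MEL1 at S0, and 969 and 894 CPM in H1 and 4415 and 4511 CPM in MEL1 at S3. Of the 49 measured (of 69 listed) genes of extracellular matrix and its integrin receptors 20 were higher (40.8%) and 2 lower (4.08%) in the fit over both lines, and 12 were higher in each line. FN1, which encodes fibronectin, was 51.2 and 49.8 CPM in H1 and 58 and 49.2 CPM in MEL1 at S0, and 1825 and 1909 CPM in H1 and 2772 and 2431 CPM in MEL1 at S3. LAMB1, a laminin chain, was 91.3 and 90 CPM in H1 and 119.7 and 119.7 CPM in MEL1 at S0, and 356 and 376 CPM in H1 and 1274 and 1157 CPM in MEL1 at S3. ITGA6, a laminin-binding integrin chain, was 214 and 202 CPM in H1 and 302 and 223 CPM in MEL1 at S0, and 89.7 and 102 CPM in H1 and 107 and 89.1 CPM in MEL1 at S3. Fibronectin and laminin transcripts rose in each line and ITGA6 fell. COL2A1, the cartilage collagen that is also made in embryonic epithelia, was 117 and 115 CPM in H1 and 68.1 and 79 CPM in MEL1 at S0, and 1557 and 1556 CPM in H1 and 49 and 61.8 CPM in MEL1 at S3, and it was called higher in H1 and not in MEL1. PCDH1, a protocadherin, was 321 and 299 CPM in H1 and 266 and 289.7 CPM in MEL1 at S0, and 24.6 and 28.6 CPM in H1 and 17 and 18.7 CPM in MEL1 at S3, a fall in each line.

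Guidance ligands and receptors changed in both lines. Of the 51 measured (of 83 listed) genes with names of the semaphorin, plexin, ephrin, slit and netrin families (a name match that also took in EPHX and UNC50 genes) 23 were higher (45.1%) and 10 lower (19.6%) in the fit over both lines, against 15.0% and 13.8% of all genes, and 18 were higher and 4 lower in each line (7.86% and 5.05% of all genes). With MEL1 S3 replicate 2 left out, 6 were lower over both lines. EFNB2, an ephrin ligand, was 51.9 and 72.3 CPM in H1 and 54.7 and 62.5 CPM in MEL1 at S0, and 487 and 485 CPM in H1 and 1090 and 1035 CPM in MEL1 at S3. SLIT3, a secreted ligand of ROBO receptors, was 0.483 and 1.14 CPM in H1 and 0.411 and 0.218 CPM in MEL1 at S0, and 3.35 and 4.74 CPM in H1 and 56 and 66.3 CPM in MEL1 at S3. SEMA3C, a secreted semaphorin, was 4.59 and 4.55 CPM in H1 and 0.823 and 5.01 CPM in MEL1 at S0, and 106 and 93.7 CPM in H1 and 11.3 and 9.93 CPM in MEL1 at S3. These 3 rose in each line, SLIT3 to a higher level in MEL1 and SEMA3C to a higher level in H1. SEMA3F, another secreted semaphorin, was 102 and 110.0 CPM in H1 and 47.9 and 61.8 CPM in MEL1 at S0, and 43.2 and 41.6 CPM in H1 and 1.5 and 3.61 CPM in MEL1 at S3, a fall in each line.

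Of the 21 measured (of 37 listed) genes of glucose transport and glycolysis 3 were higher (14.3%) and 4 lower (19%) in the fit over both lines (15.0% and 13.8% of all genes). HK1, the first enzyme of the pathway, was 77.5 and 72.8 CPM in H1 and 221 and 191 CPM in MEL1 at S0, and 21.1 and 18.1 CPM in H1 and 15.5 and 9.7 CPM in MEL1 at S3. PFKFB3, which makes the activator of phosphofructokinase, was 37 and 31.1 CPM in H1 and 30 and 26.8 CPM in MEL1 at S0, and 169.5 and 170.4 CPM in H1 and 250.5 and 352 CPM in MEL1 at S3. HK1 fell and PFKFB3 rose in each line. SLC2A1, the glucose transporter GLUT1, was 564 and 579 CPM in H1 and 949.6 and 1045 CPM in MEL1 at S0, and 1870 and 1869 CPM in H1 and 363 and 372 CPM in MEL1 at S3, with opposite calls in the lines. Of the 27 measured (of 34 listed) genes of amino acid supply and the integrated stress response 1 was higher (3.70%) and 8 lower (29.6%) in the fit over both lines. Over both lines no gene was higher once MEL1 S0 replicate 2 was left out. Without H1 S3 replicate 2, 2 were higher in the fit over both lines. PSAT1, an enzyme of serine synthesis, was 459.7 and 445 CPM in H1 and 525 and 492 CPM in MEL1 at S0, and 187 and 201 CPM in H1 and 15.8 and 12.4 CPM in MEL1 at S3. SLC1A5, a glutamine transporter, was 610.2 and 599 CPM in H1 and 692 and 888 CPM in MEL1 at S0, and 219.9 and 198 CPM in H1 and 95.1 and 110.1 CPM in MEL1 at S3. Both fell in each line, and PSAT1 fell further in MEL1, by -3.95 on the log2 scale (adjusted p = 1.44e-10). Of the 39 measured (of 56 listed) genes of sterol synthesis, lipoprotein handling and lipid metabolism 7 were higher (17.9%) and 9 lower (23.1%) in the fit over both lines.

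Genes of protein synthesis were called lower more often than higher. Of the 33 measured (of 45 listed) RNA-binding and translation factors 2 were higher (6.06%) and 10 lower (30.3%) in the fit over both lines (15.0% and 13.8% of all genes), of the 44 measured (of 165 listed) mitochondrial ribosomal proteins none was higher and 15 (34.1%) were lower, and of the 19 measured (of 85 listed) cytosolic ribosomal proteins none was higher and 5 (26.3%) were lower. Among the mitochondrial ones 9 were lower in H1 and 15 in MEL1 (9.38% and 22.0% of all genes). Leaving out MEL1 S0 replicate 2 gave 1 higher gene among the RNA-binding and translation factors over both lines. NCL, the nucleolar protein nucleolin, was 168 and 171 CPM in H1 and 1018 and 780.4 CPM in MEL1 at S0, and 122 and 129 CPM in H1 and 58.3 and 54.4 CPM in MEL1 at S3, and it was called lower in MEL1 and not in H1. Of the 15 measured (of 37 listed) transcripts encoded in mitochondria 14 were lower in MEL1 and none in H1, and 5 were lower in the fit over both lines. The count of lower genes in that fit was 1 without MEL1 S0 replicate 1 or MEL1 S3 replicate 2. With MEL1 S3 replicate 1 left out, 2 were lower over both lines. Over both lines 8 were lower once H1 S3 replicate 1 or H1 S3 replicate 2 was left out. MT-ND3, a subunit of complex I, was 1449 and 1375 CPM in H1 and 9841 and 6066 CPM in MEL1 at S0, and 1187 and 1286 CPM in H1 and 703 and 552 CPM in MEL1 at S3. The share of mitochondrial counts moved in the same way, and its part in these values was not tested.

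Among chromatin regulators some relatives changed in opposite directions. Of the 25 measured (of 38 listed) Polycomb genes 7 were higher (28.0%) and 6 lower (24.0%) in the fit over both lines (15.0% and 13.8% of all genes). PHC1 fell as given above, while PHC2, its paralog in the same complex, was 15.2 and 15.9 CPM in H1 and 6.38 and 6.96 CPM in MEL1 at S0, and 150.0 and 152 CPM in H1 and 98.3 and 108 CPM in MEL1 at S3. EPOP, an accessory subunit, was 8.46 and 4.09 CPM in H1 and 2.26 and 5.88 CPM in MEL1 at S0, and 68.8 and 67.8 CPM in H1 and 57.3 and 37 CPM in MEL1 at S3. AEBP2, another accessory subunit, was 37.9 and 38.2 CPM in H1 and 75.7 and 89 CPM in MEL1 at S0, and 15.2 and 16.3 CPM in H1 and 27.8 and 32.7 CPM in MEL1 at S3. PHC2 and EPOP rose and AEBP2 fell in each line. Of the 14 measured (of 20 listed) genes of DNA methylation 3 were higher (21.4%) and 2 lower (14.3%) in the fit over both lines. TET3, a dioxygenase that oxidizes methylcytosine, was 26.1 and 24.3 CPM in H1 and 19.9 and 29.8 CPM in MEL1 at S0, and 64.5 and 58.5 CPM in H1 and 70.6 and 75.8 CPM in MEL1 at S3. TET1, its relative in stem cells, was 94.2 and 100 CPM in H1 and 105.1 and 89.9 CPM in MEL1 at S0, and 44.9 and 56.2 CPM in H1 and 34.5 and 36.1 CPM in MEL1 at S3. TET3 rose in each line and TET1 fell in MEL1 and, in H1, by less than 2-fold. KDM6B, which removes the Polycomb mark from histone H3, was 22.2 and 29.8 CPM in H1 and 20.4 and 20.9 CPM in MEL1 at S0, and 151 and 133 CPM in H1 and 308 and 347 CPM in MEL1 at S3, a rise in each line. Of the 15 measured (of 21 listed) genes of the m6A machinery 1 was higher and 1 lower. Without MEL1 S0 replicate 1, no gene was lower in the fit over both lines. Leaving out H1 S0 replicate 2 gave 2 lower genes in that fit. RBM15B, an adaptor of the m6A writer complex, was 383 and 382 CPM in H1 and 321 and 342 CPM in MEL1 at S0, and 775 and 780.3 CPM in H1 and 744 and 736 CPM in MEL1 at S3. METTL16, a separate methyltransferase, was 84.3 and 86.6 CPM in H1 and 175 and 140.2 CPM in MEL1 at S0, and 58.1 and 63.5 CPM in H1 and 45 and 55.5 CPM in MEL1 at S3. RBM15B rose in each line and METTL16 fell in MEL1, and without MEL1 S0 replicate 1 the change of METTL16 over both lines was -0.91, under 2-fold.

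Markers of other cell types were read next. Of the 9 measured (of 23 listed) neural markers 5 were higher in H1 and 2 in MEL1 (12.5% and 22.9% of all genes), and 2 were lower in H1 and 3 in MEL1 (9.38% and 22.0% of all genes). In the fit over both lines 4 were higher and none lower (15.0% and 13.8% of all genes), and none was called in the same direction in each line. Their summed level was 1230 to 2122 CPM at S0 and 67.8 to 2677 CPM at S3, of which NES took 1075 to 2063 CPM at S0 and 37.8 to 2507 CPM at S3. NES, an intermediate filament of progenitor cells, was 1078 and 1075 CPM in H1 and 2063 and 1901 CPM in MEL1 at S0, and 2436 and 2507 CPM in H1 and 37.8 and 41.7 CPM in MEL1 at S3. ZIC1, a factor of the neural plate border, was 3.38 and 3.18 CPM in H1 and 0.823 and 0 CPM in MEL1 at S0, and 31.1 and 39.5 CPM in H1 and 0 and 0.226 CPM in MEL1 at S3. POU3F2, a neural factor, was 2.66 and 5.0 CPM in H1 and 0.206 and 0 CPM in MEL1 at S0, and 29.2 and 31.3 CPM in H1 and 0 and 0 CPM in MEL1 at S3. All 3 lay above S0 at S3 in H1, while in MEL1 NES lay far below S0 and ZIC1 and POU3F2 had at most 0.823 CPM at both stages. Over both lines NES was called without H1 S0 replicate 1, H1 S0 replicate 2 or H1 S3 replicate 2, at -2.26 to -2.49 on the log2 scale, and not with all libraries. PAX6, DCX and TUBB3 were not analysed here. Of the 7 measured (of 32 listed) mesoderm markers 2 were higher and 2 lower over both lines, and by line 1 higher and 2 lower in H1, and 3 higher and 1 lower in MEL1, with a summed level of 166 to 223 CPM at S0 and 116 to 164 CPM at S3. PDGFRA was higher and KDR lower in each line. PDGFRA, a receptor of mesenchyme and of some endoderm, was 1.69 and 0 CPM in H1 and 1.44 and 0.653 CPM in MEL1 at S0, and 10.1 and 9.27 CPM in H1 and 39.3 and 26.2 CPM in MEL1 at S3. Of the 7 measured (of 17 listed) trophoblast markers 4 were higher and 1 lower over both lines, and by line 4 higher and 1 lower in H1, and 1 higher and 1 lower in MEL1, with a summed level of 13.8 to 29 CPM at S0 and 4.0 to 31.9 CPM at S3. GATA3 was higher and TFAP2C lower in each line. Of the 8 measured (of 25 listed) markers of lung, thyroid, stomach and intestine 4 were higher and 2 lower over both lines, and by line 5 higher and 0 lower in H1, and 4 higher and 3 lower in MEL1, with a summed level of 1018 to 1424 CPM at S0 and 470.0 to 983 CPM at S3. SOX2, a member of this list also, took 974 to 1332 CPM of that sum at S0 and 825 and 836 CPM in H1 at S3, and CDX2 took 441 and 404 CPM in MEL1 at S3. CDX2, VIL1, IRX5 and OSR1 were called higher in each line (7.86% of all genes), IRX5 on at most 0.903 CPM in MEL1. No member was lower in each line, and SOX2 was called lower over both lines. The call of IRX5 over both lines was lost without H1 S0 replicate 2, at 1.93 on the log2 scale. VIL1, an actin bundler of the intestinal brush border, was 0 and 0.227 CPM in H1 and 0.823 and 0.435 CPM in MEL1 at S0, and 6.31 and 4.94 CPM in H1 and 39.5 and 30.5 CPM in MEL1 at S3. Of the 5 measured (of 28 listed) endocrine markers 1 was higher and 1 lower over both lines, and by line 2 higher and 1 lower in H1, and 1 higher and 3 lower in MEL1, with a summed level of 68.3 to 258 CPM at S0 and 9.26 to 68.6 CPM at S3. CPE was higher and CHGA lower in each line. CHGA, a granin of secretory vesicles, was 233 and 243 CPM in H1 and 62.3 and 73.1 CPM in MEL1 at S0, and 18.9 and 22.2 CPM in H1 and 4.25 and 1.8 CPM in MEL1 at S3. The part of other cell types in the changes above was not tested.

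The lines also differed in genes outside the endoderm lists. The difference in change was ranked among genes called for it and averaging 5 CPM or more. The largest excess in MEL1 was in JRK, S100A14, DEPP1, AQP3 and S100A16, and the largest in H1 in NEFM, FZD10, FOXB1, TUSC1 and DPYSL4. JRK and DEPP1 had no count in MEL1 at S0, and NEFM, FZD10, FOXB1 and TUSC1 none in MEL1 at S3. The rank of these genes depends on the prior count. AQP3, a water and glycerol channel, was 1.93 and 0.909 CPM in H1 and 2.88 and 1.31 CPM in MEL1 at S0, and 3.35 and 2.06 CPM in H1 and 598 and 489 CPM in MEL1 at S3. S100A14, a calcium-binding protein of epithelia, was 6.04 and 5.23 CPM in H1 and 1.85 and 0.653 CPM in MEL1 at S0, and 16.9 and 22.2 CPM in H1 and 1291 and 1096 CPM in MEL1 at S3. JRK was 31.6 and 31.6 CPM in H1 and 0 and 0 CPM in MEL1 at S0, and 34.7 and 23.7 CPM in H1 and 12.3 and 13.5 CPM in MEL1 at S3. S100A16 was called higher over both lines, and that call was lost without MEL1 S0 replicate 1 or 2, at 2.01 on the log2 scale in either case. NEFM, a neurofilament protein, was 84.3 and 86.6 CPM in H1 and 93.2 and 53.1 CPM in MEL1 at S0, and 56.8 and 61.6 CPM in H1 and 0 and 0 CPM in MEL1 at S3, and with no count at S3 it was at least 207-fold lower in MEL1 (against 3 counts over the 2 libraries). FZD10, a Wnt receptor, was 2.17 and 2.05 CPM in H1 and 7.81 and 3.48 CPM in MEL1 at S0, and 15.6 and 11.7 CPM in H1 and 0 and 0 CPM in MEL1 at S3, at least 16-fold lower in MEL1 by the same limit. AQP3 and S100A14 were high in MEL1 alone, and NEFM and FZD10 had no count in MEL1 at S3, while in H1 FZD10 was called higher and NEFM was not called.

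**Figure D5:**
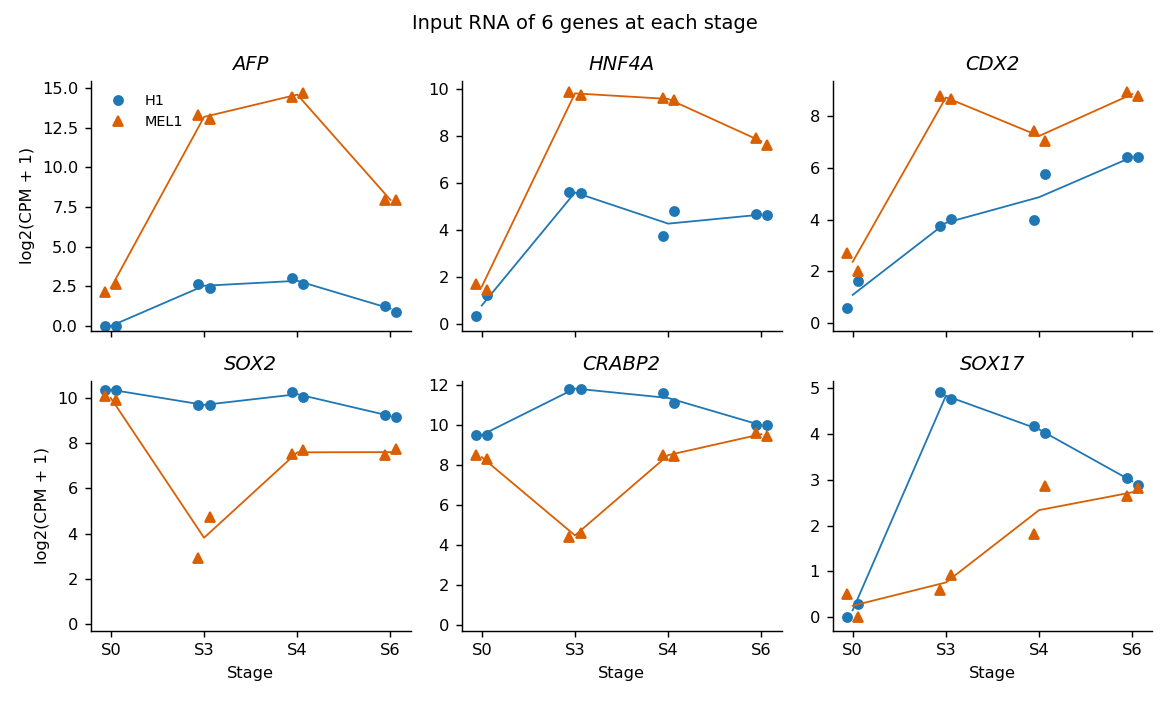
Level of AFP, HNF4A, CDX2, SOX2, CRABP2 and SOX17 in the 16 input libraries of S0, S3, S4 and S6, as log2 of CPM plus 1 on the y axis and stage on the x axis. Circles are H1 and triangles MEL1, each symbol is 1 library, and lines join the means of each line. AFP lies far higher in MEL1 than in H1 at S3 and S4, and SOX2 and CRABP2 lie lower in MEL1 at S3.

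The levels at the later stages were read for the 6 genes of the stage plot, chosen after their values were seen. AFP was 7.16 and 5.35 CPM in H1 and 22500 and 26660 CPM in MEL1 at S4, and 1.42 and 0.882 CPM and 245 and 245 CPM at S6. HNF4A was 12.3 and 26.9 CPM in H1 and 795 and 745 CPM in MEL1 at S4. SOX2 was 1243 and 1070 CPM in H1 and 182 and 205 CPM in MEL1 at S4. AFP was still higher in MEL1 at S4. At S6 HNF4A was 24.9 and 23.6 CPM in H1 and 240.5 and 199 CPM in MEL1, and SOX2 was 612 and 568 CPM and 176 and 214 CPM. CDX2 was 14.8 and 52.8 CPM in H1 and 169 and 132 CPM in MEL1 at S4, and 84.9 and 84.9 CPM and 490.4 and 436 CPM at S6. CRABP2 was 3094 and 2257 CPM in H1 and 368 and 356 CPM in MEL1 at S4, and 1026 and 1018 CPM and 788 and 716 CPM at S6. SOX17 was 17 and 15.4 CPM in H1 and 2.52 and 6.27 CPM in MEL1 at S4, and 7.28 and 6.39 CPM and 5.23 and 6.05 CPM at S6. The levels of CRABP2 and SOX17 in the lines lay closer together at S6 than at S3. In the fit over both lines the later stages also set the line term, so that they move its fold changes: with the 8 libraries of S0 and S3 alone the log2 fold change was 1.70 in place of 2.99 for COL2A1, 1.20 in place of 1.88 for LEFTY2 and 1.12 in place of 0.24 for APOE. In the fit with a mean for every line at every stage they share only the scaling and the estimate of the spread.

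The remaining gene families were read by counts in the fit over both lines, against 15.0% higher and 13.8% lower of all genes. Of the 114 measured (of 471 listed) solute carriers 23 were higher (20.2%) and 12 lower (10.5%). Of the 304 measured (of 684 listed) zinc-finger genes named ZNF 29 were higher (9.54%) and 41 lower (13.5%). Of the 28 measured (of 107 listed) cadherins and protocadherins 7 were higher (25%) and 7 lower (25%). Of the 22 measured (of 56 listed) collagens and laminins 9 were higher (40.9%) and 2 lower (9.09%). Of the 39 measured (of 74 listed) lysine demethylases and methyltransferases 5 were higher (12.8%) and 1 lower (2.56%). Of the 38 measured (of 62 listed) chromatin remodelling enzymes 4 were higher (10.5%) and 2 lower (5.26%). Of the 63 measured (of 217 listed) hnRNP and SR splicing proteins 1 was higher (1.59%) and 6 lower (9.52%). Of the 26 measured (of 38 listed) Hippo pathway genes and targets 6 were higher (23.1%) and 1 lower (3.85%). Of the 24 measured (of 48 listed) genes of the secretory pathway 2 were higher (8.33%) and 0 lower. Of the 15 measured (of 25 listed) genes of cyclin D, its kinases and their inhibitors 1 was higher (6.67%) and 4 lower (26.7%). Of the 8 measured (of 31 listed) integrins ITGA6 was lower and none was higher. Of 4 keratins measured 1, KRT19, was higher. ZNF703, a transcriptional corepressor, was 5.56 and 6.59 CPM in H1 and 2.67 and 5.44 CPM in MEL1 at S0, and 274 and 261 CPM in H1 and 108 and 115 CPM in MEL1 at S3, the largest rise among the ZNF genes that average 5 CPM or more.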

How the data were processed

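The authors isolated mRNA, sonicated it, set aside an input before immunoprecipitation with an m6A antibody, and made stranded TruSeq libraries. They deposited raw read counts per merged m6A peak, made with MeRIPtools on Ensembl annotation version 94; the aligner, the genome build and the strand setting of the counting are not given in the sources used here. Input counts of 26104 merged peaks were summed to 7978 genes by Ensembl ID (7938 with a symbol, a median of 2 peaks a gene), and 5 genes with a total under 10 were left out. Library totals of 4139505 to 6879256 over S0 and S3 limit the precision of genes with few counts.

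All 16 input libraries, grouped by their labels, were fitted in edgeR 4.0.16 (R 4.3.3) with TMM factors, its default prior count and quasi-likelihood tests. The terms were stage and line, or line-by-stage means for changes within a line and their difference. P-values were adjusted by Benjamini-Hochberg. Each SE was worked back from a change and its F statistic, and is too small for large changes from few counts. A prior count of 1 was used only for the correlation of deviations between same-numbered libraries. Scripts were tested on simulated data. Alternatives were DESeq2 1.42.0, other scalings, filters, models and samples, the IP counts, and each library left out.

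The comparison and its gene lists were chosen with earlier results of these data known. From each list up to 3 called genes in each direction averaging 5 CPM or more were named, with the 10 largest rises and the 10 largest falls called in each line, the 5 largest line differences each way and 16 fixed markers, though not every gene this rule takes is printed. Other list members and genes with a promoter match were chosen after their values were seen. Promoter windows came from RefSeq (GRCh38.p14), which need not be the build of the counts. Some genes are not reported here.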

Additional observations from a re-analysis of the deposited data

Results flagged for a closer look

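Of 156 genes named in the text, 99 had a change from S0 to S3 that differed between the lines by edgeR's quasi-likelihood test of the difference, 37 with MEL1 above H1 and 62 with MEL1 below H1, against 34.0% of all genes tested. Some of these genes were named for this difference or after their values were seen, so nothing is read from that count. The differences are given here as the log2 fold change in MEL1 less that in H1. Among endoderm regulators MEL1 exceeded H1 by 1.17 for FOXA1, 1.39 for FOXA2, 2.99 for HNF4A, 5.23 for HHEX, 2.09 for NR2F1, 1.43 for NR2F2 and 3.21 for CDX2, and fell short of it with -5.94 for SOX17, -3.64 for CXCR4, -4.55 for ONECUT1 and -1.66 for SOX9. For the secreted proteins the excess of MEL1 was 6.70 for AMBP, 3.76 for APOA1, 5.90 for APOC1, 4.70 for APOE and 4.12 for SERPINF2. For stem cell transcripts the values were -5.30 for SOX2, -2.58 for LIN28A, -2.29 for LIN28B, -2.87 for L1TD1, -1.35 for DNMT3B, -1.25 for PHC1, -6.81 for ESRG and -4.05 for THY1. For the retinoic acid and Hedgehog pathways they were -6.31 for CRABP2, -1.09 for DHRS3, -1.86 for NRIP1, 1.56 for RXRA, 1.15 for IHH, -2.0 for GLI1, -4.87 for GLI2, -3.96 for GLI3, -1.87 for PTCH1 and 1.58 for GPR161. For the BMP and Nodal pathways they were 3.13 for BMP2, 1.45 for BAMBI, -1.0 for ID1, -2.03 for NODAL, -3.76 for CER1 and -3.59 for LEFTY2.

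Among Wnt pathway genes MEL1 exceeded H1 by 3.68 for RSPO3, 3.82 for FRZB and 4.61 for SP8, and fell short with -3.94 for AXIN2, -4.78 for SFRP2, -1.02 for WLS, -1.16 for FZD4 and -10.28 for FZD10. For FGF, Notch and IGF genes the values were -2.43 for FGF2, -2.51 for FGFBP3, -1.96 for ETV4, 2.34 for FLRT3, 3.96 for GPC3, -4.09 for JAG1, -3.04 for NOTCH1, -1.68 for IGF2 and -2.79 for IGFBP5. For cell cycle genes they were -2.18 for MKI67, -2.10 for MCM4, -2.12 for BUB1, -2.58 for DLGAP5, -4.10 for MYC, -3.41 for CCND1 and 5.90 for CDKN1C. Adhesion, matrix and guidance genes differed by 2.43 for CDH6, 2.56 for KRT19, 1.33 for LAMB1, -4.15 for COL2A1, 1.22 for EFNB2, 5.21 for SLIT3, -2.57 for SEMA3C and -3.06 for SEMA3F. Genes of metabolism, translation and mitochondria differed by -2.10 for HK1, 1.09 for PFKFB3, -3.15 for SLC2A1, -3.95 for PSAT1, -1.41 for SLC1A5, -3.56 for NCL and -3.47 for MT-ND3, and those of chromatin and m6A by 1.54 for KDM6B and -1.16 for METTL16. Neural, mesoderm and trophoblast markers differed by -6.84 for NES, -5.03 for ZIC1, -1.84 for KDR and -5.05 for TFAP2C. The 10 largest differences among genes called for it and averaging 5 CPM or more were these. MEL1 exceeded H1 by 8.90 for JRK, 8.05 for S100A14, 7.55 for DEPP1, 7.05 for AQP3 and 6.91 for S100A16. It fell short with -10.75 for NEFM, -8.67 for FOXB1, -8.53 for TUSC1 and -8.25 for DPYSL4, beside FZD10 above. Among the other largest falls from S0 to S3 MEL1 fell further by -4.90 for VGF, -6.75 for CACNG7 and -7.81 for ATCAY. For AMBP, CACNG7, DEPP1, FOXB1, FZD10, HHEX, JRK, NEFM and TUSC1, which had no count in 1 of the lines at 1 of the stages, the size of this difference depends on the prior count. GLYCTK and GPR39, shown for their promoters, gave 4.91 for GLYCTK and 2.13 for GPR39.

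In 10 of 312 groups of 4 libraries, 1 gene at 1 stage each, 1 library lay far from the other 3 by Dixon's ratio. Chance gives about 1 in 20 only for 4 values from a single normal population. Each group held both lines, so where the lines differed a single library was less likely to be flagged. All 10 were at S0, and nothing is read from their number or stage. In MEL1 replicate 1 these were DNMT3B at 322 CPM and SEMA3C at 0.823 CPM, lower than the rest, PRRT1B, at 0 CPM, and CDH2 at 91.9 CPM, APOA2 at 0.411 CPM and LINC00479 at 0.206 CPM, higher than the rest. In MEL1 replicate 2 GATA6 was low at 0.435 CPM. In H1 SOX9 was low in replicate 1 at 7.25 CPM, and RARB at 1.14 CPM and OSR1 at 0.227 CPM were high in replicate 2. Except for DNMT3B, CDH2 and SOX9 these libraries held few counts of the gene.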

How the results depend on the processing

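The calls over both lines (1195 genes higher at S3 than at S0, 1100 genes lower at S3 than at S0) came to 1208 and 1201 with DESeq2, 1107 and 1252 with upper quartile factors, 1172 and 1122 without mitochondrial transcripts, 1139 and 835 without cell line in the model, and 1296 and 1299 with the IP counts, and to 1049 to 1291 and 914 to 1273 when 1 library was left out. The replicate numbers did not pair the libraries: deviations of same-numbered S0 and S3 libraries correlated at -0.00784 in H1 and 0.101 in MEL1, and with the replicate block 1172 genes were higher and 1066 lower. With the MEL1 libraries alone, an alternative chosen after seeing the data, 1751 genes were lower, a fit that holds no H1 library; no other of the 91 counts moved by over 1.5 times, while 89 of 990 counts within gene lists did.

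Of 156 named genes 10 changed sign under a planned setting in the fit over both lines, none of them called in either case: GLI3 with DESeq2 (-0.0033 on the log2 scale), CRABP2 with the 8 libraries of S0 and S3 (-0.75), APOE with the IP counts (-0.19), and DPYSL4 (0.67), FOXB1 (0.725), FZD10 (0.82), ONECUT1 (0.20) and TUSC1 (0.73) without cell line in the model. With 1 library left out the values ran from -0.34 to 0.58 for GLI3, -0.16 to 0.54 for SLC2A1, -0.40 to 0.78 for APOE, -1.18 to 0.13 for FOXB1, -0.94 to 0.89 for FZD10, -1.09 to 0.15 for ONECUT1, -0.94 to 0.036 for CCND1 and -1.81 to 0.081 for TUSC1. The fit of the 8 libraries of S0 and S3 lost the calls over both lines of CER1, COL2A1, LEFTY2, MKI67, NEFM and S100A16, and the replicate block that of LEFTY2. In the fit of 8 libraries NEFM and S100A16 lost the call by adjusted p alone. Their log2 fold changes were -2.90 and 3.85, against -2.89 and 2.84 in the main fit. Those of CER1, COL2A1, LEFTY2 and MKI67 were smaller than in the main fit. The model without cell line lost the calls of FZD5, GLI2, IRX5, LEFTY2, MKI67, NEFM, POU3F2 and SOX2 and gained APOC1 and CDKN1C. FZD5, IRX5 and POU3F2 lost theirs by adjusted p alone, with fold changes above those of the main fit. The other lost genes had smaller fold changes than in the main fit. DESeq2 gained CDKN1C, NES and WNT5A. The IP counts lost IRX5, LEFTY2, MKI67 and MT-ND3 and gained CDKN1C, NES, NODAL, SOX9, TUSC1 and WNT5A. The cause was not tested.

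With 2 libraries per line and stage, genes with few counts were measured least precisely, and MEL1 replicates differed more than H1 replicates (chi-square per degree of freedom 26.0 at S0 and 8.07 at S3, against 2.01 and 2.14). Abundant transcripts weigh most in this chi-square, among them the mitochondrial ones, which took 41% and 32.5% of counts in MEL1 at S0. Their part in it was not tested. The rank correlation of replicates was 0.972 at S0 and 0.979 at S3 in MEL1, against 0.99 and 0.991 in H1.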
